A study of Mus musculus with 8 samples.

Results

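SAGA is a large coactivator complex that carries a histone acetyltransferase and a histone deubiquitinase on a structural core. The core is built of histone-fold proteins and of TATA-box binding protein-associated factors (TAFs), and it connects these enzymes to TRRAP, the large subunit that gene-specific activators contact. The acetyltransferase module exists in another complex as well, the Ada-two-A-containing (ATAC) complex, in which the adaptor TADA2A takes the place of TADA2B. ZZZ3 and YEATS2 are ATAC subunits, so neither depleted protein belongs to SAGA. The 8 genes examined here encode the SAGA core (*Tada1*, *Supt20*, *Supt7l*, *Supt3*, *Taf5l* and *Taf6l*), its adaptor *Tada2b*, and *Trrap*, which SAGA shares with the TIP60 complex. They were chosen by name, from the subunit composition of the complex, out of 55401 genes in the deposited files. All 8 passed the filter on low counts, which left 17532 genes.

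RNA was sequenced from 8 libraries of mouse embryonic stem cells (ESCs), 2 named Control, 3 Zzz3_auxin and 3 Yeats2_auxin. In the Zzz3_auxin and Yeats2_auxin lines the named protein carried an auxin-inducible degron (AID), through which added auxin marks it for degradation, and auxin was present at 500 µM for 24 h. The methods describe growth of ESCs on gelatin in serum with LIF and 2 inhibitors (2i), with G418 to keep the Tir1 transgene that the degron needs. They do not say whether these 2 controls carried that transgene. The labels do not state which line the controls were or whether they received auxin or solvent. The study describes its estimates for these lines in one place as DMSO against auxin and in another as wild type against depletion, and here both depletions share the same 2 control libraries. Depletion, auxin exposure and any difference of line therefore cannot be told apart in a comparison with control. Whether each AID line was 1 clone is not given in the sources used here. The methods name independent cultures for the nascent RNA labelling done in the study itself. The conditions of this RNA sequencing are likened to those of nascent RNA data taken from an earlier study. No independent cultures are named for these libraries. P values measure the spread between these libraries, which may be technical. The molecule is labelled as polyA RNA, whereas total RNA was depleted of ribosomal RNA and prepared with a stranded kit according to the protocol.

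Reads assigned to genes numbered 14315120 in Zzz3_auxin replicate 3 and up to 27884704 in the other libraries. All 9 ESC markers were present in every library (102.9 to 2545 CPM, reads scaled to a common library total). Summed over each list and over all libraries, 4 fibroblast markers (a possible feeder layer) had 7.06 to 12.4 CPM, 4 primitive endoderm markers 1.63 to 2.74, 3 mesendoderm markers 11.5 to 21.9 and 3 trophoblast markers 10.9 to 19.0 CPM. *Eomes* (5.065 to 9.769 CPM) counts in both of the last lists, and the trophoblast marker *Elf5* reached at most 0.08 CPM. Among the fibroblast markers, *Pdgfrb* alone had 5.674 to 10.78 CPM. The sum of 3 neuroectoderm markers was 40.7 to 42.9 CPM in Control, 48.4 to 71.6 in Zzz3_auxin and 44.8 to 50.2 in Yeats2_auxin, and its part in any result was not tested. *Nes* alone carried the higher sums, with group means of 36.1, 53.1 and 45.3 CPM, while *Sox1* had 5.13, 3.00 and 2.57 CPM and *Pax6* 0.55, 1.44 and 0.37 CPM in the same order. Of the targeted genes, *Zzz3* had 181.9 to 186.5 CPM in Control, 77.5 to 112 CPM in Zzz3_auxin and 183 to 191 CPM in Yeats2_auxin, and *Yeats2* had 90.9 to 95.8, 119 to 133 and 43.7 to 103 CPM. The degron acts on the proteins, which were not measured here, so these mRNAs do not show whether depletion worked. In 2 libraries expression shifted with GC content. The median log2 deviation from the mean of all libraries was compared between genes with over 53.9% GC and genes with under 44.3% GC. The first minus the second was -0.59 in Control replicate 1 and 0.43 in Zzz3_auxin replicate 3, and -0.08 to 0.15 in the others. For genes whose values shifted with these libraries, log2 fold changes (FCs) without a library or after removal of the GC trend are given as well. In bulk RNA, fewer expressing cells and less RNA per cell cannot be told apart.

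Levels per exon length (RPKM, here CPM divided by the annotated exon length in kilobases) spanned a wide range among the core genes. *Taf5l* had the highest mean over the groups (25.7 RPKM) and *Supt20* nearly the same (25.4 RPKM). *Trrap* (9.29), *Taf6l* (6.07), *Supt7l* (5.63), *Tada2b* (3.73) and *Tada1* (1.70) followed, and *Supt3* was lowest at 0.903 RPKM. The ratio of the highest to the lowest gene was 43.1 in Control, 28.9 in Zzz3_auxin and 24.8 in Yeats2_auxin. *Taf5l* exceeded *Supt20* in 6 of 8 libraries, the exceptions being the 2 controls, and *Taf6l* exceeded *Supt7l* in 6 of 8, so these neighbours did not have a fixed order. The other 5 neighbouring pairs kept their order in all 8 libraries. With the longest transcript in place of all annotated exons, *Supt20* (42.4 RPKM) stood above *Taf5l* (30.9 RPKM) and *Supt7l* (12.9) above *Taf6l* (12.3), and 4 neighbouring pairs kept their order in all libraries. The 2 lowest genes rested on few reads, 88 to 202 per library for *Tada1* and 49 to 136 for *Supt3*.

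**Figure D1:**
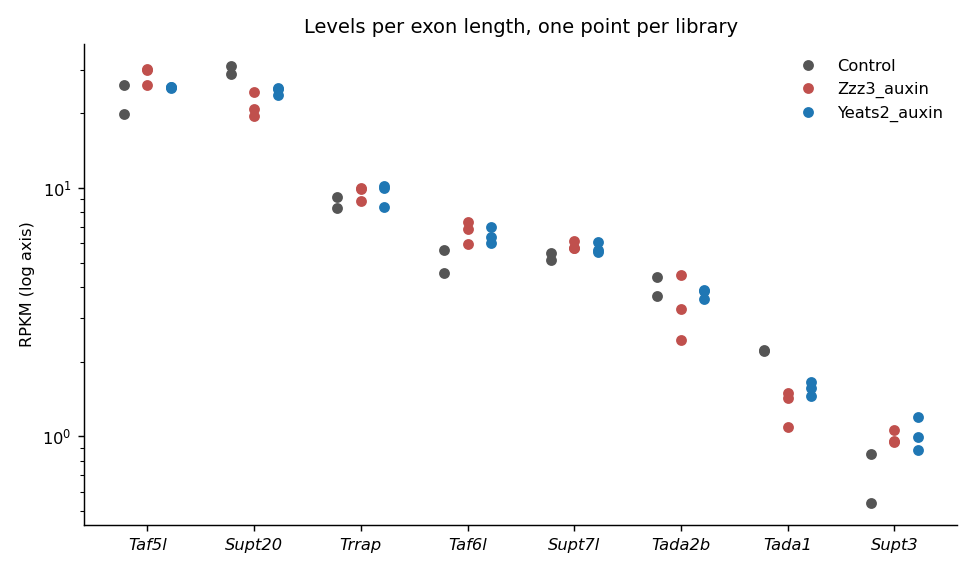
RPKM (log axis) of the 8 SAGA core genes, 1 point per library, with the groups side by side for each gene. Genes are ordered by the mean over groups, from Taf5l (25.7 RPKM) to Supt3 (0.903 RPKM); Taf5l and Supt20 change places between Control and the auxin groups.

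*Tada1* and *Supt20* were the core genes with the lowest levels in auxin relative to control. *Tada1* (ENSMUSG00000026563, GRCm38 chromosome 1, 166379097 to 166393621, plus strand) encodes a histone-fold subunit of the core that pairs with TAF12. It had 9.08 and 9.16 CPM in Control, 4.49, 6.12 and 5.89 CPM in Zzz3_auxin, and 5.96, 6.80 and 6.41 CPM in Yeats2_auxin. Every auxin library lay below both controls, whose values almost coincided. Such separation from 2 controls was common: libraries did not overlap for 35.8% of all genes tested in Zzz3_auxin and 40.3% in Yeats2_auxin. The share of genes apart in both depletions at once was not determined, here or for the genes below. The log2 FC was -0.73 in Zzz3_auxin (SE 0.19, 95% interval -1.15 to -0.31, edgeR adjusted P = 0.0831) and -0.51 in Yeats2_auxin (SE 0.19, interval -0.93 to -0.09, adjusted P = 0.25). Neither passed the threshold of an adjusted P under 0.05.

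*Supt20* (ENSMUSG00000027751, chromosome 3, 54692807 to 54728766, plus strand) encodes the counterpart of yeast Spt20, which is needed for the integrity of the complex. It had 194.5 and 181 CPM in Control, 130.7, 152 and 122 CPM in Zzz3_auxin, and 158, 149 and 157 CPM in Yeats2_auxin. Again all 6 auxin libraries were below both controls. The lowest level was in Zzz3_auxin replicate 3. The log2 FC was -0.48 in Zzz3_auxin (SE 0.12, interval -0.74 to -0.22, adjusted P = 0.0762) and -0.28 in Yeats2_auxin (SE 0.12, interval -0.54 to -0.02, adjusted P = 0.308). *Supt20* transcripts have 44.6% GC, and once the dependence on GC content and exon length had been removed from each library the log2 FCs were -0.34 and -0.19, whereas those of *Tada1* (49.6% GC) were -0.73 and -0.53.

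*Supt7l* and *Supt3* encode 2 further histone-fold subunits. *Supt7l* (ENSMUSG00000053134, chromosome 5, 31514564 to 31527807, minus strand), whose product pairs with TAF10, had 35.9 and 38.2 CPM in Control, 39.9, 40.2 and 42.7 CPM in Zzz3_auxin, and 42.3, 38.6 and 39.4 CPM in Yeats2_auxin. It was the steadiest of the 8 genes, with an SD of log2 CPM of 0.08 over all libraries against a median of 0.28 over all genes tested. The groups did not overlap, but the log2 FCs were 0.15 (SE 0.12, interval -0.12 to 0.41) in Zzz3_auxin and 0.12 (SE 0.12, interval -0.15 to 0.38) in Yeats2_auxin. Both intervals include 0.

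*Supt3* (ENSMUSG00000038954, chromosome 17, 44777152 to 45119290, plus strand) encodes a subunit whose yeast counterpart contacts the TATA-box binding protein. Its levels were 3.50 and 2.22 CPM in Control, 4.37, 3.92 and 3.95 CPM in Zzz3_auxin, and 3.64, 4.92 and 4.12 CPM in Yeats2_auxin. All auxin libraries were above both controls, yet the controls differed from each other by 0.66 on the log2 scale, more than the log2 FCs of 0.52 (SE 0.25, interval -0.04 to 1.07, adjusted P = 0.261) and 0.57 (SE 0.25, interval 0.02 to 1.11, adjusted P = 0.325). These FCs were 0.87 and 0.93 without Control replicate 1 and 0.23 and 0.27 without Control replicate 2. The transcripts of *Supt3* have the lowest GC content of the 8 genes (38.3%), and the correction for GC content and length gave 0.79 and 0.80.

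*Taf5l* and *Taf6l* encode the SAGA versions of TAF5 and TAF6, which belong to the general transcription factor TFIID. *Taf5l* (ENSMUSG00000038697, chromosome 8, 123996318 to 124021397, minus strand) encodes a WD40-repeat protein. Its levels were 71.3 and 93.1 CPM in Control, 107, 92.4 and 107.5 CPM in Zzz3_auxin, and 91.3, 89.9 and 91.4 CPM in Yeats2_auxin. Control replicate 2 lay within the range of the auxin libraries, and Control replicate 1 was the lowest of all. The log2 FC of 0.32 in Zzz3_auxin (SE 0.14, interval 0.02 to 0.61, adjusted P = 0.205) was 0.13 without Control replicate 1 and 0.53 without Control replicate 2. In Yeats2_auxin the log2 FC of 0.14 (SE 0.13, adjusted P = 0.654) became -0.04 without Control replicate 1.

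*Taf6l* (ENSMUSG00000003680, chromosome 19, 8774487 to 8786417, minus strand), whose product is another histone-fold protein, had 22.8 and 28.2 CPM in Control, 34.3, 29.9 and 36.5 CPM in Zzz3_auxin, and 30.1, 35.0 and 31.8 CPM in Yeats2_auxin. Its auxin libraries all exceeded both controls. The log2 FCs were 0.40 (SE 0.15, interval 0.07 to 0.73, adjusted P = 0.165) and 0.34 (SE 0.15, interval 0.01 to 0.67, adjusted P = 0.324). Without Control replicate 1 they were 0.25 and 0.20.

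*Tada2b* (ENSMUSG00000029196, chromosome 5, 36473670 to 36484285, minus strand) encodes the adaptor that holds the acetyltransferase in SAGA. It had 16.7 and 13.9 CPM in Control, 12.4, 16.9 and 9.24 CPM in Zzz3_auxin, and 14.7, 13.6 and 14.6 CPM in Yeats2_auxin. Zzz3_auxin held both the highest and the lowest of the 8 values, and the groups overlapped. The log2 FC of -0.25 in Zzz3_auxin (SE 0.22, interval -0.73 to 0.24, adjusted P = 0.552) was -0.05 without Zzz3_auxin replicate 3, and the -0.10 in Yeats2_auxin (SE 0.22, interval -0.58 to 0.39) was 0.04 without Control replicate 1.

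*Trrap* (ENSMUSG00000045482, chromosome 5, 144767732 to 144859778, plus strand) encodes a pseudokinase related to ATM and mTOR. Its levels were 173 and 191 CPM in Control, 207, 184.6 and 209.7 CPM in Zzz3_auxin, and 212.5, 176 and 209 CPM in Yeats2_auxin. The groups overlapped, since Control replicate 2 exceeded 1 library of each auxin group. The log2 FCs were 0.14 (SE 0.12, interval -0.13 to 0.41, adjusted P = 0.547) and 0.13 (SE 0.12, interval -0.14 to 0.40, adjusted P = 0.67). *Trrap* transcripts have the highest GC content of the 8 genes (53.6%), and with the correction for GC content and length the log2 FC in Zzz3_auxin was -0.09.

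**Figure D2:**
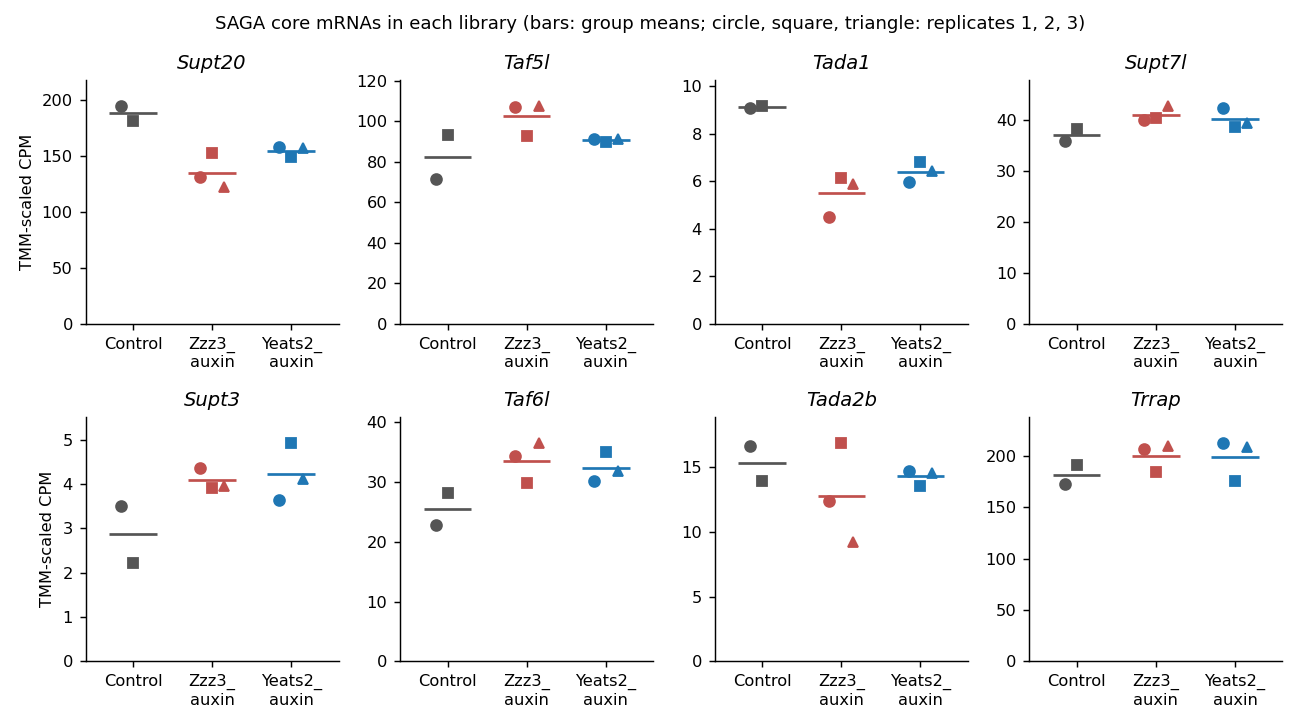
TMM-scaled CPM for each SAGA core gene, 1 point per library, with the mean of each group as a bar and every axis from 0. Supt20 and Tada1 lie lower in all 6 auxin libraries than in the 2 controls, whereas Supt7l, Supt3 and Taf6l lie higher and Taf5l, Tada2b and Trrap overlap. Of all genes tested, 35.8% had no overlap with Control in Zzz3_auxin and 40.3% in Yeats2_auxin.

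The comparison of Zzz3_auxin with Control asked whether the mRNAs of SAGA change in abundance when an ATAC subunit is removed. *Tada1* and *Supt20* had the largest negative log2 FCs of the 8 genes and *Supt3* the largest positive one, and none of the 8 was called by edgeR. Over all genes tested, 0.753% were called. At an unadjusted P under 0.05 there were 4 of 8, *Taf5l* and *Taf6l* with higher and *Tada1* and *Supt20* with lower levels, against 21.7% of all genes. The libraries of both groups did not overlap for 5 of 8, 3 higher (*Supt7l*, *Supt3* and *Taf6l*) and 2 lower (*Tada1* and *Supt20*), against 35.8% of all genes. The median log2 FC was 0.14 over the 8 genes, 5 of which had positive values, and 0.01 over all genes.

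The calls for *Tada1* and *Supt20* depended on the tool. DESeq2, the tool of the study, called both in Zzz3_auxin (log2 FC -0.74, adjusted P = 0.0228, and -0.48, adjusted P = 0.0187), and it called 7.78% of the genes for which it gave an adjusted P. edgeR without a filter on low counts called both as well (adjusted P = 0.0481 and 0.0284), along with 4.67% of all genes. Without Zzz3_auxin replicate 2, edgeR called *Supt20* alone among the 8 (log2 FC -0.57, adjusted P = 0.0346), along with 4.82% of all genes. Over 17 alternatives the log2 FC of *Tada1* stayed between -0.82 and -0.58 and that of *Supt20* between -0.57 and -0.33, while the adjusted P ranged from 0.0228 to 0.525 and from 0.0187 to 0.538.

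**Figure D3:**
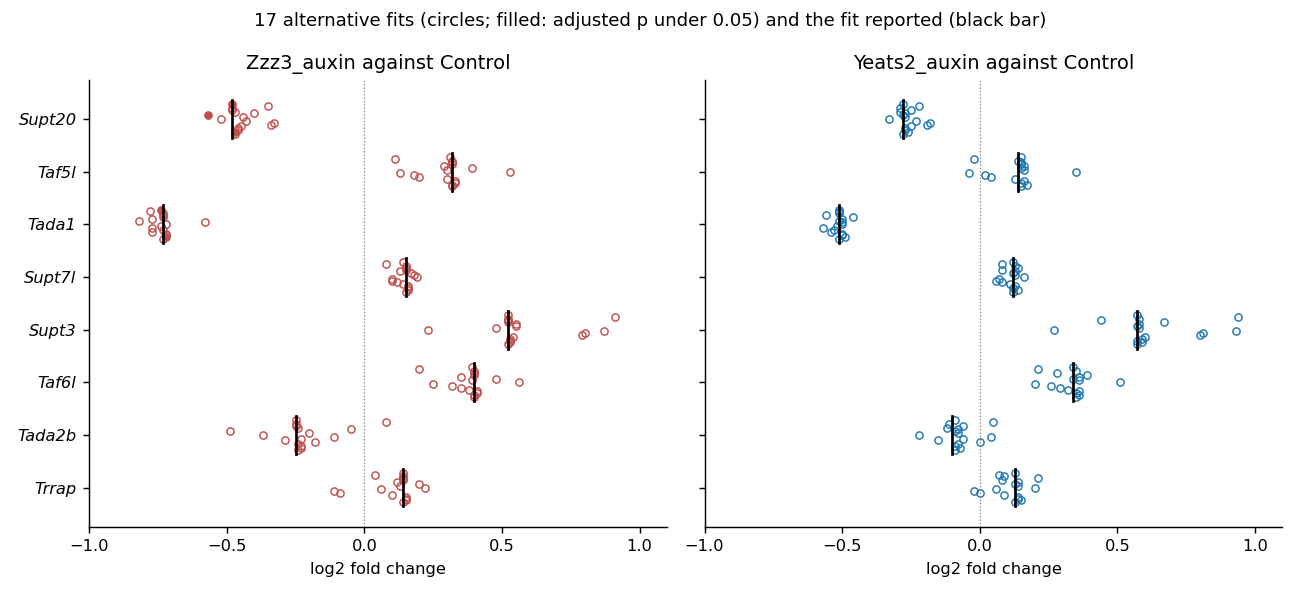
log2 FC of each SAGA core gene against Control under 17 alternative analyses (circles, filled where the adjusted P was under 0.05) and as reported (black bar). Tada1 and Supt20 stay below 0 and Supt7l, Supt3 and Taf6l above 0 in both depletions, whereas Tada2b and Trrap reach both sides of 0 in both and Taf5l in Yeats2_auxin.

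The comparison of Yeats2_auxin with Control asked the same for another ATAC subunit. It shares its 2 controls with the comparison above, so similar values in both are not independent. *Tada1* (log2 FC -0.51) and *Supt20* (-0.28) again had the lowest values and *Supt3* (0.57) and *Taf6l* (0.34) the highest. None of the 8 genes was called by edgeR, against 0.445% of all genes, and none by DESeq2, against 2.75%. There were 4 of 8 at an unadjusted P under 0.05, *Supt3* and *Taf6l* with higher and *Tada1* and *Supt20* with lower levels, against 14.6% of all genes. The libraries did not overlap for 5 of 8, 3 higher and 2 lower, against 40.3% of all genes. The median log2 FC was 0.12 over the 8 genes and -0.01 over all genes.

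Yeats2_auxin was also compared with Zzz3_auxin directly, which does not involve the controls' levels. The 2 groups are different AID lines, so the depleted protein and the line cannot be told apart here either. The log2 FCs lay between -0.17 (*Taf5l*) and 0.22 (*Tada1*). No SAGA core gene was called by edgeR or reached an unadjusted P under 0.05, and none was called by DESeq2. Of all genes, 0% were called by edgeR, 6.25% reached an unadjusted P under 0.05 and 0.00909% were called by DESeq2. For 1 of 8, *Taf5l*, the libraries did not overlap, with lower levels in Yeats2_auxin, against 11.1% of all genes. The intervals bound the difference: *Tada1* could be 0.16 lower to 0.60 higher in Yeats2_auxin on the log2 scale (interval -0.16 to 0.60), *Supt20* ranged from -0.04 to 0.43, and *Supt3* from -0.42 to 0.52. The smaller log2 FCs of *Tada1* and *Supt20* in Yeats2_auxin are therefore not shown to differ from those in Zzz3_auxin.

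**Figure D4:**
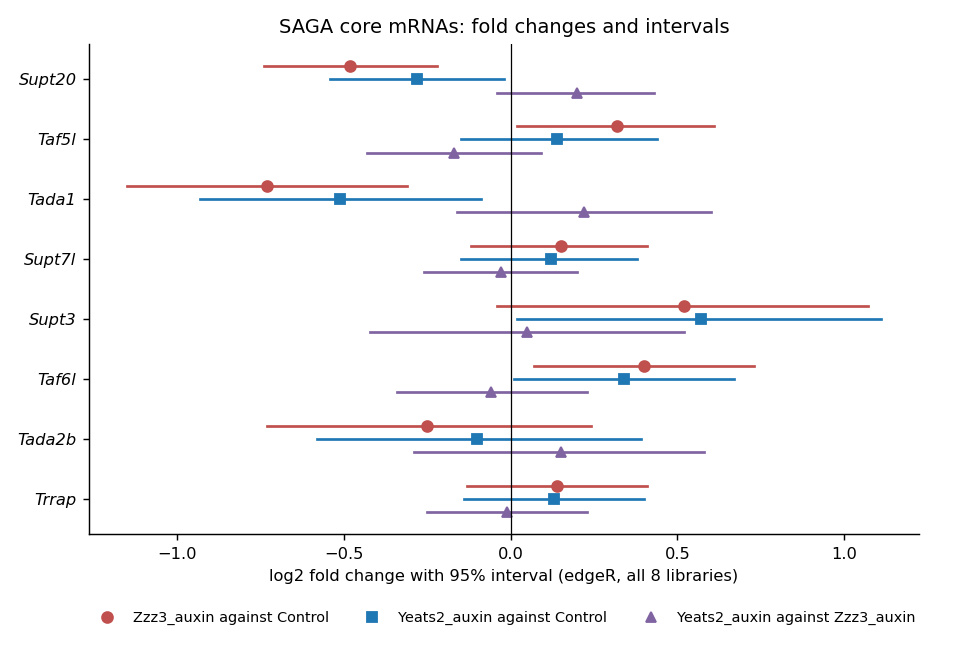
log2 FC with its 95% interval for each SAGA core gene in the 3 comparisons (edgeR, all 8 libraries in 1 fit). For Tada1 and Supt20 both intervals against Control lie below 0, for Taf6l both lie above 0, and all 8 intervals of the direct comparison include 0.

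*Taf5l*, *Taf6l* and *Tada2b* were also set beside their counterparts in a related complex, and *Trrap* beside another gene of the TIP60 complex, as the log2 ratio of their RPKM within each library, which does not depend on the scaling of libraries. With at most 3 libraries per group, an exact permutation test cannot give a P under 0.1, and none was run. For *Taf5l* over *Taf5* of TFIID, the log2 ratio was -0.08 and 0.44 in Control, 0.67, 0.41 and 0.68 in Zzz3_auxin, and 0.46, 0.45 and 0.43 in Yeats2_auxin. The level of *Taf5l* was thus 0.95 times that of *Taf5* in Control replicate 1 and 1.33 to 1.60 times it in the other libraries. By this measure only Control replicate 1 had a negative log2 ratio. That sign depended on the exon length used. In the same library the log2 ratio of CPM with no length was 0.05. With the longest transcript, *Taf5l* had 23.96 RPKM there and *Taf5* 21.05 RPKM, against 36.15 and 18.81 RPKM in Zzz3_auxin replicate 3. For *Taf6l* over *Taf6*, the log2 ratio was negative in every library: -1.29 and -1.54 in Control, -1.83, -1.68 and -1.53 in Zzz3_auxin, and -1.60, -1.61 and -1.56 in Yeats2_auxin. Zzz3_auxin overlapped Control, and all 3 Yeats2_auxin libraries lay below both controls, by a narrow margin.

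*Taf6* itself had 49.6 and 73.0 CPM in Control, 109, 85.5 and 94.2 CPM in Zzz3_auxin, and 81.5, 95.3 and 83.6 CPM in Yeats2_auxin, with all auxin libraries above the controls. Its log2 FC was 0.65 in Zzz3_auxin (SE 0.17, edgeR adjusted P = 0.0833) and 0.50 in Yeats2_auxin (SE 0.17, adjusted P = 0.216). In Zzz3_auxin it was called by DESeq2 (adjusted P = 0.0168), by edgeR without a filter (0.00113) and by edgeR without Zzz3_auxin replicate 2 (0.0489). In Yeats2_auxin it was called by edgeR without a filter (adjusted P = 0.0357), along with 1.68% of all genes, but not by DESeq2 (0.129). The log2 FCs were 0.39 and 0.25 without Control replicate 1, 0.96 and 0.81 without Control replicate 2, and 0.47 and 0.35 with the correction for GC content and length. *Taf5* had -0.08 in Zzz3_auxin and -0.11 in Yeats2_auxin (adjusted P = 0.712 and 0.678).

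The adaptor of SAGA was far less abundant per length than that of ATAC. The log2 RPKM ratio of *Tada2b* over *Tada2a* was -2.53 and -2.77 in Control, -3.03, -2.46 and -3.06 in Zzz3_auxin, and -2.67, -2.59 and -2.63 in Yeats2_auxin, so *Tada2b* had 0.12 to 0.18 of the *Tada2a* level. *Tada2a* had log2 FCs of -0.09 and -0.11 in Zzz3_auxin and Yeats2_auxin (adjusted P = 0.745 and 0.739). *Trrap* was set beside *Ep400*, a chromatin remodeller of the TIP60 complex. The log2 ratio was -0.62 and -0.38 in Control, -0.35, -0.40 and -0.37 in Zzz3_auxin, and -0.21, -0.14 and -0.34 in Yeats2_auxin. All Yeats2_auxin libraries were above both controls by a narrow margin, the nearest values being -0.34 and -0.38. How often such ratios separate over other pairs of genes was not determined. *Ep400* had log2 FCs of 0.01 in Zzz3_auxin and -0.14 in Yeats2_auxin (edgeR adjusted P = 0.969 and 0.685).

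The remaining 16 genes of SAGA were examined by module. In Zzz3_auxin 1 of 16 was called, *Sf3b3*, which encodes a splicing factor that is also a SAGA subunit, against 0.753% of all genes. It had 671 and 659.7 CPM in Control, 458, 486 and 441 CPM in Zzz3_auxin, and 491, 471 and 467 CPM in Yeats2_auxin. The controls and auxin libraries were well apart. *Sf3b3* fell by 0.53 on the log2 scale in Zzz3_auxin (SE 0.10, log2 FC -0.53, edgeR adjusted P = 0.0454), close to the threshold, and its log2 FC in Yeats2_auxin was -0.48 (SE 0.10, adjusted P = 0.0751). The call in Zzz3_auxin was lost with a replicate block (log2 FC -0.50, adjusted P = 0.112), with only the compared groups in the fit (-0.51, 0.223), and without any of 6 libraries: Control replicate 1 (-0.52, 0.477), Control replicate 2 (-0.54, 0.099), Zzz3_auxin replicate 1 (-0.51, 0.109), or Yeats2_auxin replicates 1 (-0.52, 0.11), 2 (-0.53, 0.0769) or 3 (-0.53, 0.11). The size of the difference thus hardly moved. With only the compared groups, or without either control, edgeR called 0 of all genes in Zzz3_auxin, although 2606, 1569 and 3909 had an unadjusted P under 0.05. DESeq2 called *Sf3b3* in both depletions (adjusted P = 0.000667 and 0.00411), against 7.78% and 2.75% of all genes with an adjusted P.

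None of the other 15 was called in either depletion by edgeR, against 0.753% and 0.445% of all genes, or by DESeq2. Of the acetyltransferase module (4 genes), the log2 FCs in Zzz3_auxin ran from -0.24 (*Kat2b*, an acetyltransferase) to 0.42 (*Sgf29*, a reader of methylated histone H3) and in Yeats2_auxin from -0.35 (*Kat2b*) to 0.38 (*Kat2a*, the alternative acetyltransferase). This module is shared with ATAC apart from its adaptor. Of the deubiquitinase module (6 genes) they ran from -0.23 (*Eny2*) to 0.40 (*Atxn7l2*) in Zzz3_auxin and from -0.48 (*Atxn7*, which anchors the module) to 0.16 (*Atxn7l3*) in Yeats2_auxin. *Sf3b5*, the other gene of the splicing module, had 0.20 and 0.05. Of the 4 TAFs shared with TFIID they ran from -0.36 (*Taf9*) to 0.14 (*Taf9b*) in Zzz3_auxin and from -0.49 (*Taf9b*) to -0.02 (*Taf9*) in Yeats2_auxin. The *Taf9* values are uncertain, since it shares 73.8% of its exon bases with *Ak6* on the same strand and had only 24 to 47 reads per library. The median log2 FC of the 16 genes was 0.03 and -0.09 in Zzz3_auxin and Yeats2_auxin.

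Several of these extreme values shifted with Control replicate 1. Without it, *Sgf29* had a log2 FC of 0.27 and *Atxn7l2* of 0.21 in Zzz3_auxin, and *Kat2a* had 0.26 in Yeats2_auxin. With the correction for GC content and length, the same 3 values were 0.27, 0.09 and 0.18. The positive value of *Atxn7l3* in Yeats2_auxin was -0.03 without Control replicate 1, that of *Sf3b5* was 0.03 in Zzz3_auxin and -0.11 in Yeats2_auxin, and that of *Taf9b* in Zzz3_auxin was -0.06. *Taf9* had 0.00 in Zzz3_auxin and 0.34 in Yeats2_auxin. The negative values of *Kat2b* (-0.22 and -0.33) and of *Atxn7* in Yeats2_auxin (-0.40) moved less. *Eny2* in Zzz3_auxin had -0.19 without this library and -0.00 with the correction.

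**Figure D5:**
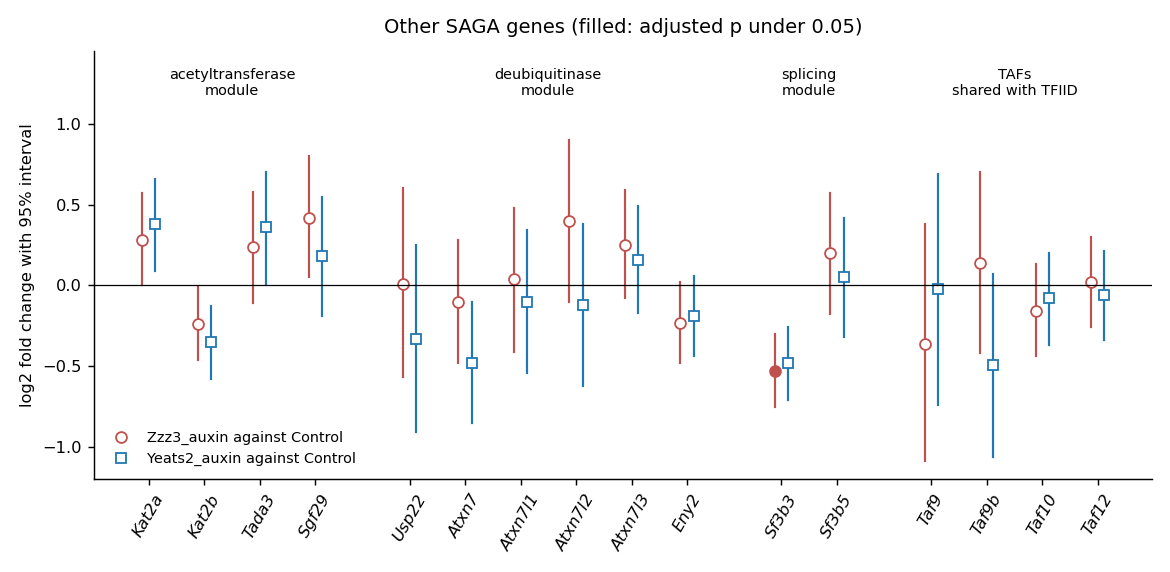
log2 FC with its 95% interval for the 16 other SAGA genes, by module, in Zzz3_auxin (circles) and Yeats2_auxin (squares) against Control, filled where the adjusted P was under 0.05. Only Sf3b3 in Zzz3_auxin is filled, at -0.53.

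TRRAP belongs to the family of phosphatidylinositol 3-kinase-related kinases, which mature with the chaperone formed by TELO2, TTI1 and TTI2. None of the 8 listed genes of this family and its chaperone was called in any comparison by edgeR, against 0.753%, 0.445% and 0% of all genes, or by DESeq2. At an unadjusted P under 0.05 in edgeR there were 3 of 8 in Zzz3_auxin, against 21.7% of all genes. In Yeats2_auxin there was 1 of 8, against 14.6%, and in the direct comparison 0 of 8, against 6.25%. Their log2 FCs ran from -0.31 (*Atm*) to 0.34 (*Mtor*) in Zzz3_auxin and from -0.42 (*Atm*) to 0.24 (*Mtor*) in Yeats2_auxin, with medians of -0.03 and -0.06. Without Control replicate 1 *Mtor* had 0.24 and 0.14 and *Atm* -0.26 and -0.36, and with the correction for GC content and length they had 0.14 and 0.10, and -0.15 and -0.28. With only the compared groups in the fit, *Atm* was called in Yeats2_auxin (log2 FC -0.40, edgeR adjusted P = 0.0454), along with 2.69% of all genes. Among 9870 protein-coding genes whose mean reached 5 CPM, those whose log2 CPM, centred on its own mean, followed *Trrap* most closely over the 8 libraries were *Zfp236*, *Kif13b* and *Aaas*. Their root mean square distances from *Trrap* were 0.034, 0.046 and 0.048 on the log2 scale, against a median of 0.220 over all these genes. They were picked as the nearest, so distances under the median were fixed by the choice. *Trrap* itself varied little, with an SD of log2 CPM of 0.12 against a median of 0.28 over all genes tested.

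Several core genes share exon bases with a gene on the opposite strand in the annotation used here. *Tada1* shares 25.6% of its exon bases with *Pogk*, whose level was low in every library (0.39 to 1.68 CPM) and whose log2 FC was 0.06 in Zzz3_auxin and -0.25 in Yeats2_auxin. *Tada2b* shares 10.8% with *Grpel1* (127 to 153 CPM, log2 FC 0.05 and 0.10). *Supt20* shares 10.3% with *Gm21958*, which had 0 reads in all libraries, and 1.4% with *Exosc8* (log2 FC -0.34 and -0.18). Outside the core, *Taf6* shares 26.5% with *Ap4m1* and *Taf10* 45.9% with *Ilk*, both on the opposite strand. The levels of *Ap4m1* and *Ilk* were not examined. Whether the counting used strand is not given in the sources used here. Of 476 genes that lie wholly within exons of the opposite strand, 188 had reads and 8 had at least 1000 reads over the 8 libraries. Union-mode counting without strand would leave such genes without reads, provided that the authors' annotation release places the same exons there.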

How the data were processed

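As the labels and the study's methods state, the authors ran cutadapt on the reads, discarded those from ribosomal RNA, aligned the rest to mm10 with STAR 2.5.3a and obtained gene counts with HTSeq-count 0.6.1p1 in union mode on Ensembl annotation. The submitters' processing notes also list R 3.3.2 and DESeq2 1.16.1. Deposited values are raw counts without normalization, 1 file per library. The 5 tallies of unassigned reads were left out. Of 55401 identifiers, 55141 were found in the GENCODE annotation of GRCm38 (the mm10 assembly), which gave symbols, positions, exon lengths and GC content, and 260 were not found.

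Genes were filtered with filterByExpr and scaled by TMM in edgeR 4.0.16 (R 4.3.3, limma 3.58.1). A robust quasi-likelihood fit of all 8 libraries with 1 mean per group gave two-sided P values, adjusted by Benjamini and Hochberg over 17532 genes, with genes called below an adjusted P of 0.05. The SE of each log2 FC was derived from the F statistic as |log2 FC| / sqrt(F), and intervals are 95% intervals from the t distribution. The code was tested on simulated data. Alternatives were DESeq2 1.42.0, scaling by median of ratios, genes unfiltered or kept from a mean of 1 CPM, only the compared groups, the replicate number as a block, removal of GC and length trends (lowess span 0.3), and each library left out. The block was also combined with the removal of GC and length trends. Control replicate 1 and Zzz3_auxin replicate 3 were also left out together. Among the core genes, counting error (1 over the square root of the lowest count) was 14.3% for *Supt3*, 10.7% for *Tada1* and 8.51% for *Tada2b*. For the other core genes it was at most 4.65%. Outside the core, *Taf9* (24 to 47 reads per library) and *Taf9b* (44 to 104) also rested on few reads. The 2 controls limit precision. Tables and figures were made in Python 3.11.15 (pandas 2.3.3, numpy 2.4.6, matplotlib 3.10.9).

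The genes examined, the lists and the tests were chosen with earlier results of these data known. All 8 core genes are described, and of each list the genes that were called and those with the largest and smallest log2 FC are named, together with *Taf5*, *Taf6*, *Tada2a* and *Ep400*. Nascent RNA data were not analysed here.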

Additional observations from a re-analysis of the deposited data

How the results depend on the processing

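Of 136 log2 FCs of the 8 core genes (8 genes under 17 alternatives), 128 kept direction and side of the threshold in Zzz3_auxin against Control, 129 in Yeats2_auxin against Control and 122 in the direct comparison. The number of core genes called in Zzz3_auxin was 2 with DESeq2, against 7.78% of the genes with an adjusted P. It was 2 with no filter, against 4.67% of all genes, and at most 1 when an auxin library was left out. Leaving out an auxin library gave 3 to 836 calls over all genes in Zzz3_auxin, against 132 in the fit reported. The number of other SAGA genes called in Zzz3_auxin was 0 with only the compared groups, where 0 of all genes were called. It was 0 with the replicate block, where 42 of all genes were called, and at most 1 when an auxin library was left out. In Yeats2_auxin it was 1 with DESeq2, against 2.75% of the genes with an adjusted P, and 1 with only the compared groups, against 2.69%. It was 1 with the GC and length correction, where 141 of all genes were called. It was at most 1 when an auxin library was left out, which gave 0 to 217 calls over all genes. With the replicate block no core gene was called. None had been called in the fit reported, so neither the block nor any other alternative had a core gene call to remove. Deviations of same-numbered libraries from their group means correlated at -0.17 to 0.2, above 0.1 in 1 of 7 pairs, and the labels name no shared batch. These values show no clear pairing by replicate number but cannot exclude one, since the deviations of the 2 controls mirror each other. The log2 FC of *Tada2b* in Yeats2_auxin was 0.00 with the replicate block, and that of *Ep400* in Zzz3_auxin was -0.05. With the GC and length correction, without and with the replicate block, *Trrap* had -0.09 and -0.11 in Zzz3_auxin, -0.00 and -0.02 in Yeats2_auxin and 0.09 and 0.09 in the direct comparison, and *Ep400* had -0.14 and -0.19 in Zzz3_auxin. *Trrap* had 0.00 in the direct comparison with no filter. Libraries were left out 1 at a time, and Control replicate 1 and Zzz3_auxin replicate 3 also together. Only the latter gave *Tada2b* a positive log2 FC in Zzz3_auxin (0.08). Over these fits, ranges that crossed 0 in Zzz3_auxin were -0.49 to 0.08 (*Tada2b*), -0.14 to 0.00 (*Taf5*), -0.16 to 0.03 (*Tada2a*) and -0.03 to 0.07 (*Ep400*). In Yeats2_auxin they were -0.22 to 0.05 (*Tada2b*) and -0.04 to 0.35 (*Taf5l*). In the direct comparison they were -0.03 to 0.39 (*Tada2b*), -0.07 to 0.00 (*Supt7l*), -0.08 to 0.15 (*Supt3*), -0.14 to 0.01 (*Taf6l*), -0.07 to 0.07 (*Trrap*) and -0.12 to 0.06 (*Tada2a*). As CPM ratios with no length, the log2 ratio of *Taf5l* over *Taf5* was 0.58 in Yeats2_auxin, that of *Taf6l* over *Taf6* -1.52 in Zzz3_auxin and -1.43 in Yeats2_auxin, that of *Tada2b* over *Tada2a* -2.30, -2.50 and -2.28 in Control, Zzz3_auxin and Yeats2_auxin, and that of *Trrap* over *Ep400* 0.08, 0.20 and 0.35, since the exons of *Trrap* are longer. For the list genes named for their extreme values, the alternatives were added after seeing the data. With the GC and length correction, without and with the replicate block, *Atxn7l3* had -0.00 and -0.04 and *Taf9* 0.20 and 0.20 in Yeats2_auxin, and *Eny2* had 0.04 in Zzz3_auxin with both. *Taf9* had 0.00 in Yeats2_auxin with no filter. *Sf3b5* had a negative log2 FC in Zzz3_auxin (-0.10) only without Control replicate 1 and Zzz3_auxin replicate 3 together. With libraries left out, ranges that reached 0 or crossed it were -0.10 to 0.38 (*Sf3b5*), -0.65 to 0.00 (*Taf9*) and -0.06 to 0.38 (*Taf9b*) in Zzz3_auxin, and -0.03 to 0.39 (*Atxn7l3*), -0.11 to 0.24 (*Sf3b5*) and -0.31 to 0.35 (*Taf9*) in Yeats2_auxin. Other causes were not tested.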
